A study of Mus musculus with 12 samples.

Results

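Expression of 45 listed cell cycle and mitosis genes was examined in the livers of mice that lack the nucleoside transporter ENT3. The genes were taken from a fixed list: a gene counted as measured when an array feature carried its symbol and no other. Of the 45, 41 had such a feature, 1 each, among 65956 transcript features and 30145 named genes on the array. The features of Ccnd1, Mcm7 and Foxm1 carry further symbols and were not described, and Ccnb1 is not analysed here. The 41 genes were split by role into 16 of S phase, 22 of mitosis and 3 markers of S and G2 phase (Mki67, Top2a and Ccna2).

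The study compared 6 ENT3 -/- (KO) and 6 ENT3 +/+ (WT) mice of strain C57BL6/J, all aged 12 weeks, with 1 array per liver. Each genotype held 3 females and 3 males, read from the letter F or M in the titles, and mice are named by their animal number: KO females 13, 40 and 69, KO males 18, 19 and 39, WT females 25, 27 and 38, and WT males 17, 23 and 33. No group had received a treatment in the labels. How the allele was made, which part of Slc29a3, the gene of ENT3, was removed, and whether the mice shared litters or array batches were absent from the labels used here, so p-values measure the spread between these animals only. ENT3 carries nucleosides across the membranes of lysosomes and mitochondria.

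Cells that divide switch on their cell cycle genes in order. Cyclin E with CDK2 and the E2F factors open S phase, the MCM helicase and PCNA copy the DNA, and cyclin B with CDK1 drives entry into mitosis, where kinases, motor proteins and the cytokinesis machinery separate the chromosomes and then the cells. Hepatocytes of an adult liver are mostly at rest, so whole-liver RNA holds little of these transcripts unless hepatocytes, or other cells in the tissue, cycle. In S phase genes E2F sites in the promoter are typical, and in many mitosis genes a CHR element with CCAAT boxes, bound by the DREAM and MuvB complexes and by NF-Y.

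The promoters of 5 genes are shown, chosen after the values were seen. Mki67, Top2a, Kif11 and Kif23 are 4 of the 9 genes with every KO liver above every WT liver. Cdk2 was the 1 gene of the 41 that passed the test as lower in KO. Each sequence is the 250 bases before the gene start in RefSeq's annotation of GRCm38.p6, 5′ to 3′ on the gene's strand. Capitals mark an E2F motif (TTCCCGC, its variant TTGGCGC, the further variant TTCGCGC or the last one searched, TTGCCGC), a CHR motif (TTTGAA or TTCGAA) or CCAAT, on either strand. No 2 of the marked motifs overlap in these 5 windows.
Mki67, chr7:135716380-135716629, minus strand: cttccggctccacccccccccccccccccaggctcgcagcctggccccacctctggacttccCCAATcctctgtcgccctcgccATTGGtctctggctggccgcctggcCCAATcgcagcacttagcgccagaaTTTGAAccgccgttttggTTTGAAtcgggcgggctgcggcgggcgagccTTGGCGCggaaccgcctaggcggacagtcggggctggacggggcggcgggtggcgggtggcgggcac
Top2a, chr11:99024190-99024439, minus strand: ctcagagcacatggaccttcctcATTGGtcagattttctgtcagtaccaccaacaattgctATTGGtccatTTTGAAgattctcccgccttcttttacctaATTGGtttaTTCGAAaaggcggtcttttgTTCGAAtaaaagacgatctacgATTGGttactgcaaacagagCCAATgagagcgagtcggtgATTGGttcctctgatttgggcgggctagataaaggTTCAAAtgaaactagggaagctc
Kif11, chr19:37376132-37376381, plus strand: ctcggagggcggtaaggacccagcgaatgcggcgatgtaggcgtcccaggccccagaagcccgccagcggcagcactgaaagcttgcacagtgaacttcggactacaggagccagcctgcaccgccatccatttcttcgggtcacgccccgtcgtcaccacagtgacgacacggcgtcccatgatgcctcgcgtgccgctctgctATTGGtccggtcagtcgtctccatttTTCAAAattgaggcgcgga
Kif23, chr9:61946800-61947049, minus strand: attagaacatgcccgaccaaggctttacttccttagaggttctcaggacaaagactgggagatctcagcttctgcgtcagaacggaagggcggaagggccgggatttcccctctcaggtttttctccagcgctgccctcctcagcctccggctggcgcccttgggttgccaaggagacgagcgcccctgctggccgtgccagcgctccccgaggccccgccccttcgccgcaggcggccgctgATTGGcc
Cdk2, chr10:128705052-128705301, minus strand: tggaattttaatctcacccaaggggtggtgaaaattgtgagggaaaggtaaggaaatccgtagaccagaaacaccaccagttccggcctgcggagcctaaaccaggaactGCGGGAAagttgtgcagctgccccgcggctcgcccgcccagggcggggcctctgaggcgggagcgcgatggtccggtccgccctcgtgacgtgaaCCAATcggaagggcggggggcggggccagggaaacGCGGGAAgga

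The Mki67 window holds 2 CHR motifs, 3 CCAAT motifs and 1 E2F motif. In the Top2a window there are 4 CHR and 6 CCAAT motifs, and in the Kif11 window 1 of each, the CHR starting 19 and the CCAAT 45 bases before the gene start. The Kif23 window holds a single CCAAT motif, 7 bases before the start, and the Cdk2 window 2 E2F motifs, 140 and 10 bases before the start, with 1 CCAAT. The windows of Ccne1 and Anln, which were called higher in KO, and of Nusap1, with every KO liver above every WT liver, are not shown. They held no E2F, CHR or CCAAT motif. These matches describe the letters in the windows only.

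A promoter was found for 32 of the 41 genes. E2F motifs occurred in 5 of 12 S phase promoters (41.7%) and 1 of 18 mitosis promoters (5.56%), against 7.97% of all 27025 promoters searched. CHR motifs occurred in 7 of 18 mitosis promoters (38.9%) and 2 of 12 S phase promoters (16.7%), against 17.4% of all promoters. CCAAT was present in 14 of 18 mitosis promoters (77.8%) and 7 of 12 S phase promoters (58.3%), against 34.5% of all. Both CHR and CCAAT stood in 10 of the 32 (31.2%), and in 6.21% of all promoters.

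Several facts of the arrays bear on every value below. Values are the deposited log2 signals, and differences are KO minus WT on that scale with the standard error (SE) of a limma fit to all 12 arrays, with p adjusted over all features by Benjamini-Hochberg. Slc29a3 was lower in KO, at 4.13 ± 0.04 in KO and 5.07 ± 0.18 in WT livers (SD, n = 6 each; limma adjusted p = 0.000324). Negative control features, which match no transcript, had a median of 3.93 in KO and 3.80 in WT arrays, higher by 0.14 (two-sided exact permutation of genotype inside each sex, p = 0.005, which is the lower limit of 400 arrangements, and 0.00833 adjusted over 5 array measures). Poly-A spikes, added to the RNA before labelling, were lower in KO by 0.86, at 5.44 in KO and 6.30 in WT (exact permutation p = 0.005, adjusted 0.00833). The 95th percentile of the negative controls was higher in KO by 0.36, at 6.68 against 6.32 in WT (exact permutation p = 0.005, adjusted 0.00833). Positive control features had a median lower in KO by 0.39, at 8.12 against 8.51 (exact permutation p = 0.01, adjusted 0.0125). The 9 measured hepatocyte markers, among them albumin, averaged 18.11 to 18.39 in KO and 18.23 to 18.38 in WT, 5 of them at the ceiling of the scale on every array, as the tissue label would have it.

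Signal of most of the 41 genes was low. Pcna, the sliding clamp of DNA replication, was the 1 gene above the 95th percentile of the negative controls on all 12 arrays, against 10.8% of all features. Mki67 was above it in 2 livers, KO male 18 and KO female 40, and the other 39 genes in none, against 82.1% of all features. That percentile lay between 6.20 and 6.83 on the 12 arrays. The sizes of differences in these 40 genes are therefore not exact, and in a bulk sample fewer cells of a type and less RNA per cell cannot be told apart.

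Over both sexes 5 of the 41 genes passed the test, at an adjusted p under 0.05, against 9.75% of all features. Mki67, Kif23, Ccne1 and Anln rose (5.28% of all features were called higher) and Cdk2 fell (4.47% called lower). Without the test, the shift was broader: 37 of the 41 differences were positive, with a median of 0.26, beside a median of 0.05 over all features. At an unadjusted p under 0.05, 24 genes were higher and 2 lower, against 15% of all features higher and 23.2% in either direction. The 4 called genes other than Mki67 stayed inside the negative control range on every array and are named because they are the count itself, after their values were seen. With the poly-A spike mean or the negative control median of each array as a covariate, both of which differ between the genotypes, none of the 5 was called, with adjusted p-values of 0.192 to 1. The median difference over the 41 genes was 0.34 and 0.42 in these 2 fits, with 38 and 39 of them positive. Cdk2 was at -0.17 and 0.005. The negative control median did not overlap between the genotypes, so the fit with it cannot separate the background from the genotype.

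**Figure D1:**
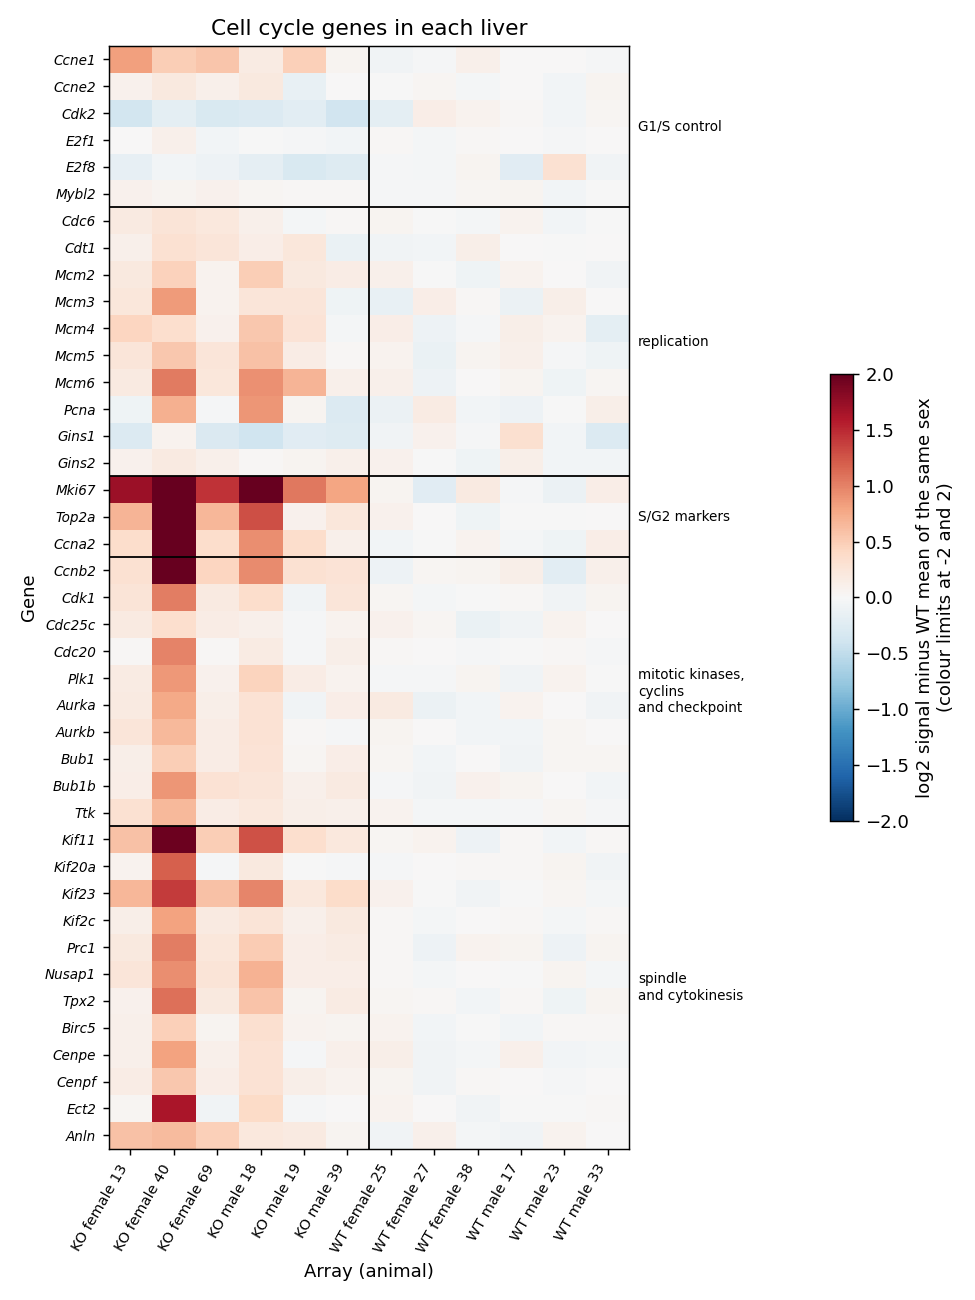
Log2 signal of the 41 genes in each of the 12 livers, minus the WT mean of the same sex, with genes as rows grouped by role and livers as columns. The columns of KO female 40 and KO male 18 are the reddest in the mitosis rows, where KO female 40 was the highest of the 12 livers in 22 of 22 genes.

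Mki67 encodes Ki-67, a coat protein of mitotic chromosomes that is present in cycling cells and lost in resting ones. Its log2 signal was 6.15, 8.17 and 5.88 in KO females 13, 40 and 69 and 8.34, 5.34 and 5.08 in KO males 18, 19 and 39, against 4.48, 4.21 and 4.61 in WT females and 4.27, 4.17 and 4.42 in WT males. Every KO liver was above every WT liver, and KO male 18 and KO female 40 stood well above the other 4. The mean was 6.49 ± 1.42 in KO and 4.36 ± 0.17 in WT (SD, n = 6 each), a difference of 2.13 ± 0.57 (limma adjusted p = 0.0437). It was 2.30 in females (limma adjusted p = 0.137) and 1.96 in males (0.341). The call was lost in 8 of the 12 fits that left out 1 liver (each of the 6 WT livers, KO female 13 or KO female 40), with adjusted p-values reaching 0.093 and a difference that ran from 1.61 to 2.42.

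Top2a, the topoisomerase that untangles sister chromatids, was also highest in KO female 40 and KO male 18. Its values were 4.67, 5.99 and 4.64 in KO females 13, 40 and 69 and 5.26, 4.07 and 4.21 in KO males 18, 19 and 39, against 4.06, 3.98 and 3.90 in WT females and 3.97, 3.97 and 3.99 in WT males. The groups did not overlap, although KO male 19 and WT female 25 lay next to each other. With a difference of 0.83 ± 0.26, Top2a did not pass over both sexes (limma adjusted p = 0.0819). Ccna2, cyclin A, which partners CDK2 in S phase and CDK1 in G2, had 4.62, 6.26 and 4.62 in KO females and 5.21, 4.62 and 4.38 in KO males, against 4.21, 4.25 and 4.33 in WT females and 4.23, 4.19 and 4.41 in WT males. KO male 39 lay below 1 WT male, and the difference of 0.68 ± 0.27 did not pass (limma adjusted p = 0.164).

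Among the 6 measured genes of G1 and of entry into S phase, 1 rose, 1 fell and 4 did not pass, with a median of 0.02. Of all features 5.28% were called higher and 4.47% lower. Ccne1, cyclin E1, had 4.97, 4.63 and 4.70 in KO females 13, 40 and 69 and 4.34, 4.64 and 4.23 in KO males 18, 19 and 39, against 4.07, 4.12 and 4.24 in WT females and 4.18, 4.18 and 4.15 in WT males. In all 3 KO females and in KO males 18 and 19 it was above every WT liver, and KO male 39 was within the WT range. KO female 40 did not lead here. The difference was 0.43 ± 0.08 (limma adjusted p = 0.0102), at 0.62 in females (adjusted p = 0.0149) and 0.23 in males (0.451). After quantile normalization it was 0.32 and not called (adjusted p = 0.0777).

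Cdk2, the kinase that cyclin E activates, moved the other way. It had 4.40, 4.57 and 4.46 in KO females 13, 40 and 69 and 4.65, 4.71 and 4.54 in KO males 18, 19 and 39, against 4.57, 4.90 and 4.84 in WT females 25, 27 and 38 and 4.93, 4.86 and 4.96 in WT males. Apart from WT female 25, whose value lay among the KO livers, every WT liver was above every KO liver. The difference was -0.29 ± 0.07 (limma adjusted p = 0.0221), close to equal in females (-0.29) and males (-0.29), neither called alone (limma adjusted p = 0.105 and 0.213). Leaving out WT male 17 or 33, WT female 38, KO male 39, or KO female 13 or 69 ended the call (highest adjusted p = 0.059). Of the others, Ccne2 (cyclin E2), Mybl2 (B-Myb, which joins MuvB), and the factors E2f1 and E2f8 differed by -0.18 to 0.07, none of them past the test.

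None of the 10 measured replication genes passed the limma test. At an unadjusted p under 0.05, 5 were higher and 1 lower, against 15% of all features higher and 23.2% in either direction. The 5 subunits of the MCM helicase, which unwinds DNA at the fork, had differences of 0.26 to 0.53 with a median of 0.27. Mcm6 had the largest of these, with 4.59, 5.45 and 4.63 in KO females and 5.17, 4.93 and 4.36 in KO males, against 4.51, 4.30 and 4.41 in WT females and 4.31, 4.16 and 4.29 in WT males (0.53 ± 0.17, limma adjusted p = 0.0894). All KO livers but KO male 39 exceeded the WT livers in Mcm6. Cdc6 and Cdt1, which load the helicase, and Gins2, a subunit of the helicase's GINS cofactor, differed by 0.09 to 0.15, and Gins1 by -0.23.

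Pcna, the gene with measurable signal throughout, did not pass. It had 8.04, 8.83 and 8.09 in KO females 13, 40 and 69 and 8.93, 8.10 and 7.77 in KO males 18, 19 and 39, against 7.9996, 8.29 and 8.07 in WT females and 7.95, 8.04 and 8.16 in WT males. KO male 18 and KO female 40 were the 2 highest livers, and the other 4 KO livers lay within or below the WT range. The difference was 0.21 ± 0.20 (limma adjusted p = 0.6), and it turned to -0.08 without those 2 animals, an alternative chosen after seeing the data.

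**Figure D2:**
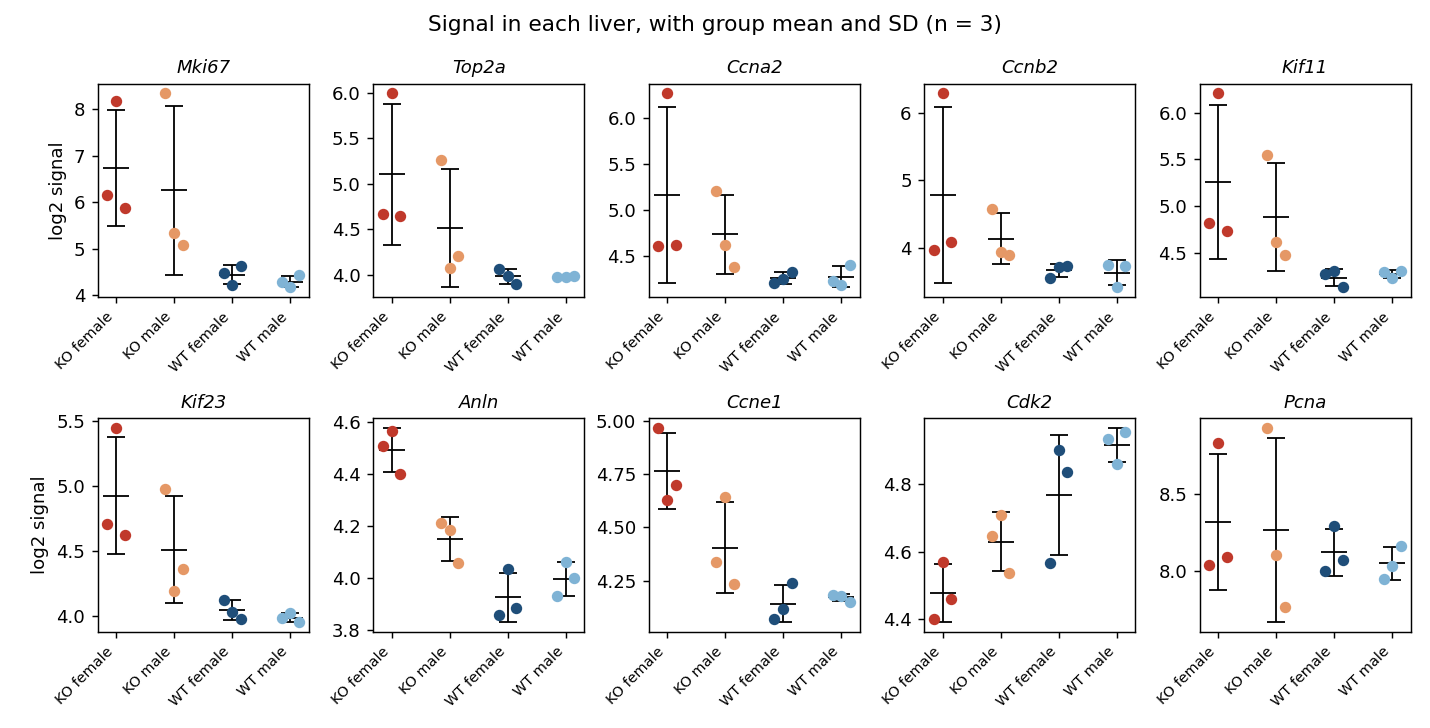
Log2 signal of 10 genes in each liver, by group, with points for animals and bars for the group mean and SD (n = 3). KO females and KO males spread widely in Mki67, Top2a, Ccna2, Ccnb2, Kif11 and Pcna, each with 1 animal far above its group, while the KO females sit together in Anln.

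All 22 measured mitosis genes had a positive difference, with a median of 0.29 beside 0.13 for the 16 S phase genes, of which 12 were positive. The 5 MCM genes among the latter had a median of 0.27. All 22 mitosis genes lay inside the negative control range. As a median percentile of each array's own negative controls, Cdc20 (30.1 in KO, 30.7 in WT), Aurka (69.4, 70.8) and Kif20a (58.4, 62.3) were lower in KO. So were Tpx2 (57.3, 57.7), Cenpe (48.2, 48.3) and Ect2 (59.9, 63.7), and the other mitosis genes were higher. By the test, 2 mitosis genes rose and 20 did not pass, and of the 16 S phase genes 1 was higher and 1 lower. Of all features 5.28% were called higher and 4.47% lower. Every KO liver was above every WT liver in 9 of the 41 genes, against 1.97% of all features: 7 were mitosis genes (Ccnb2, Bub1b, Kif11, Kif23, Kif2c, Prc1 and Nusap1), 2 were Mki67 and Top2a, and none was an S phase gene. No gene had every KO liver below every WT liver, against 1.94% of features. With each array centred on its median, the mitosis and S phase medians were 0.22 and 0.07, and after quantile normalization 0.20 and 0.05. Without KO female 40 alone the mitosis median was 0.17 and the median over the 41 genes 0.15.

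The 10 measured mitotic kinases, cyclins and checkpoint genes differed by 0.14 to 0.81, and none passed the limma test. At an unadjusted p under 0.05, 8 were higher, against 15% of all features. Cdk1, the kinase that starts mitosis, had 4.07, 4.83 and 3.98 in KO females 13, 40 and 69 and 4.14, 3.71 and 4.04 in KO males 18, 19 and 39, against 3.85, 3.77 and 3.80 in WT females and 3.82, 3.71 and 3.84 in WT males. KO female 40 stood alone above the rest, and KO male 19 was level with the lowest WT male (0.33 ± 0.14, limma adjusted p = 0.185). Ccnb2, cyclin B2, had 3.96, 6.29 and 4.09 in KO females and 4.57, 3.93 and 3.90 in KO males, against 3.56, 3.71 and 3.72 in WT females and 3.74, 3.41 and 3.73 in WT males. The groups did not overlap, KO female 40 was far above the others, and the difference of 0.81 ± 0.36 did not pass (limma adjusted p = 0.205). The kinases Plk1, Aurka and Aurkb, which build and steer the spindle, differed by 0.30, 0.24 and 0.22. Bub1, Bub1b and Ttk, of the checkpoint that holds cells until chromosomes are attached, differed by 0.20, 0.30 and 0.25. Cdc20, which activates the anaphase-promoting complex once that checkpoint is met, and the CDK1-activating phosphatase Cdc25c differed by 0.22 and 0.14.

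Spindle and cytokinesis genes held both called mitosis genes. Kif23, a kinesin of the central spindle, had 4.71, 5.44 and 4.63 in KO females 13, 40 and 69 and 4.97, 4.19 and 4.36 in KO males 18, 19 and 39, against 4.13, 4.04 and 3.98 in WT females and 3.99, 4.03 and 3.96 in WT males. No KO liver fell into the WT range, and the difference was 0.70 ± 0.16 (limma adjusted p = 0.0232). Leaving out WT male 17, 23 or 33, or WT female 38, ended the call (highest adjusted p = 0.0582). Anln, anillin, the scaffold of the contractile ring, had 4.51, 4.56 and 4.40 in KO females and 4.21, 4.18 and 4.06 in KO males, against 3.86, 4.03 and 3.89 in WT females and 3.93, 4.06 and 3.9989 in WT males.

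In Anln the 3 KO females lay close together above every other liver, and KO male 39 was level with the highest WT male. The difference was 0.36 ± 0.05 (limma adjusted p = 0.00333), at 0.57 in females (0.00381) and 0.15 in males (0.461), and the call held in all 12 fits that left out 1 liver, as did that of Ccne1. The difference between the sexes did not pass in either (limma interaction adjusted p = 0.428 for Anln and 0.727 for Ccne1).

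Kif11, the motor that pushes spindle poles apart, had 4.83, 6.20 and 4.74 in KO females and 5.55, 4.62 and 4.48 in KO males, against 4.27, 4.31 and 4.13 in WT females and 4.30, 4.23 and 4.31 in WT males. The KO livers were all above the WT livers, again with KO female 40 and KO male 18 on top (0.81 ± 0.26, limma adjusted p = 0.0873). Prc1, a bundler of central spindle microtubules, and Nusap1 and Tpx2, which stabilise or nucleate spindle microtubules, differed by 0.38, 0.40 and 0.36. Kif2c, a microtubule depolymerase, and Kif20a, a kinesin of cytokinesis, differed by 0.28 and 0.24, and Ect2, the exchange factor that activates RhoA at the cleavage site, by 0.33. Birc5, or survivin, of the chromosomal passenger complex, and the kinetochore proteins Cenpe and Cenpf differed by 0.18, 0.23 and 0.21. None of these 10 genes passed.

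Within females 2 of the 41 genes passed, both higher (Anln and Ccne1), against 3.13% of all features higher, 3.06% lower and 6.19% in either direction. Within males none passed by limma, against 0.579% of features higher, 0.506% lower and 1.09% in either direction. At an unadjusted p under 0.05, 4 were higher and 1 lower in males, against 7.44% of features higher and 12.8% in either direction. For the difference between the sexes none passed either, against 0.00152% of features, with 2 of larger difference in females at an unadjusted p under 0.05, against 4.05% of features so and 6.67% in either direction. The median difference of the mitosis genes was 0.40 in females and 0.16 in males, and of the S phase genes 0.21 and 0.07, beside 0.07 and 0.03 over all features. For the 5 MCM genes alone it was 0.34 in females and 0.26 in males.

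A pair of KO animals stood apart from the other KO livers. They were picked after the values of these genes were seen. The counts that follow therefore describe 2 animals, read in many genes, and test nothing. KO female 40 was the highest of the 12 livers in 31 of the 41 genes, 22 of 22 mitosis genes and 7 of 16 S phase genes, against 16.7% of all features, and the highest of the 3 KO females in 38, against 37.5%. KO male 18 was the highest of the 3 KO males in 36 of 41 genes, 22 of 22 and 11 of 16, against 32.9% of features, and the highest of all 12 livers in 4, against 7.64%. In 26 of the 41 these animals were the 2 highest KO livers, against 7.76% of features. Measured from the WT mean of the same sex, the median over the mitosis genes was 0.18, 0.87 and 0.15 in KO females 13, 40 and 69 and 0.29, 0.09 and 0.12 in KO males 18, 19 and 39, while WT livers lay between -0.03 and 0.04. Over the S phase genes it was 0.10, 0.29 and 0.09 in the KO females and 0.15, 0.06 and -0.02 in the KO males, against -0.02 to 0.04 in WT livers. The excess of mitosis over S phase genes was thus largest in KO female 40. Over the 5 MCM genes alone the median was 0.23, 0.54 and 0.09 in the KO females and 0.54, 0.24 and 0.03 in the KO males. WT livers lay between -0.11 and 0.10 there. In KO female 13 and KO males 18 and 19 the MCM median was above the mitosis median, and in the other KO livers below it. In the 4 other KO livers the mitosis medians were 0.09 to 0.18. The negative controls were shifted by 0.14 at their median and by 0.36 at their 95th percentile, over all KO livers. The part of these shifts in the 4 livers alone was not tested. In the fit to all 12 arrays with the negative control median as a covariate, the mitosis median was 0.38, against 0.29 without it. That covariate ran from 3.86 to 3.97 in KO and from 3.75 to 3.84 in WT arrays, without overlap. The fit therefore cannot separate the background from the genotype, and no conclusion is drawn from the 0.38.

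**Figure D3:**
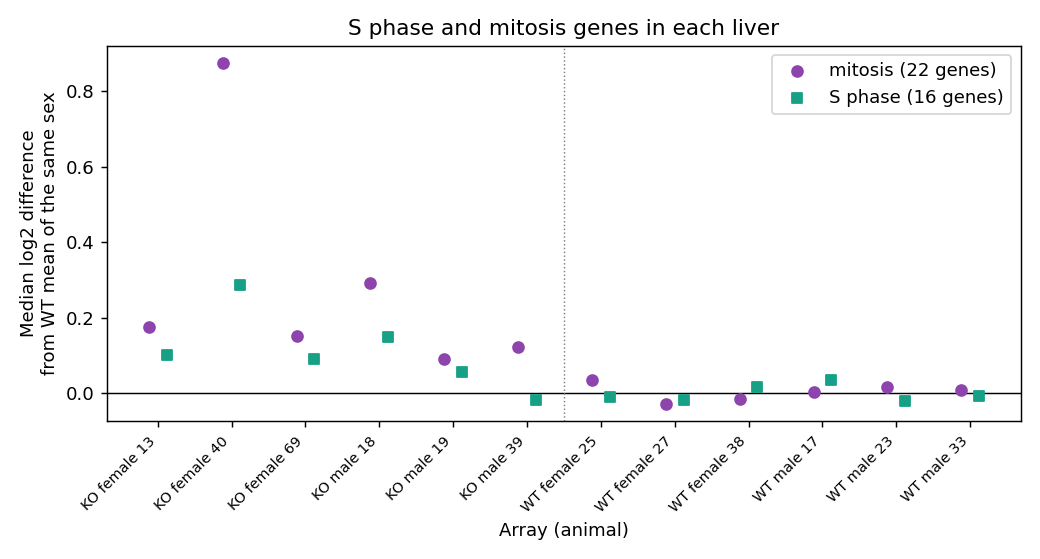
Median log2 difference from the WT mean of the same sex over 22 mitosis genes (circles) and 16 S phase genes (squares) in each of the 12 livers. KO female 40 reaches 0.87 for mitosis genes and KO male 18 reaches 0.29, while WT livers lie between -0.03 and 0.04.

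The spread within KO livers was wide in the same genes. The SD over KO livers exceeded that over WT livers in 35 of 41 genes, with a median ratio of 3.50, against 61.1% of all features and a median ratio of 1.17. It did so in 22 of 22 mitosis genes (median ratio 4.999) and 10 of 16 S phase genes (1.57). These SDs pool both sexes, whereas the limma test uses the spread around the 4 group means, over KO and WT together. By that test 36 of the 41 genes did not pass, and the part of the KO spread in this was not tested.

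Leaving out KO female 40 and KO male 18, an alternative chosen after seeing the data, lowered most differences and also the spread. The median fell to 0.12 without them, against 0.26 with all livers, and 35 of 41 differences were positive. Now 8 genes rose and 1 fell, against 4.12% of features higher, 3.43% lower and 7.55% in either direction. Mki67 was at 1.25 ± 0.11 (limma adjusted p = 0.00100), Top2a at 0.42 ± 0.05 (0.00438), Ccna2 at 0.29 ± 0.07 (0.0468), Kif11 at 0.41 ± 0.06 (0.00669) and Kif23 at 0.45 ± 0.06 (0.00405). Nusap1 was at 0.19 ± 0.05 (limma adjusted p = 0.0414), Anln at 0.32 ± 0.06 (0.019) and Ccne1 at 0.48 ± 0.09 (0.0215), and Cdk2 at -0.32 ± 0.08 (0.0483). All 4 genes called higher and the 1 called lower with every liver were among these 9. Ect2 (-0.01), Kif20a (0.005) and Cdc20 (0.03), in contrast, were near 0 without the 2 animals.

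**Figure D4:**
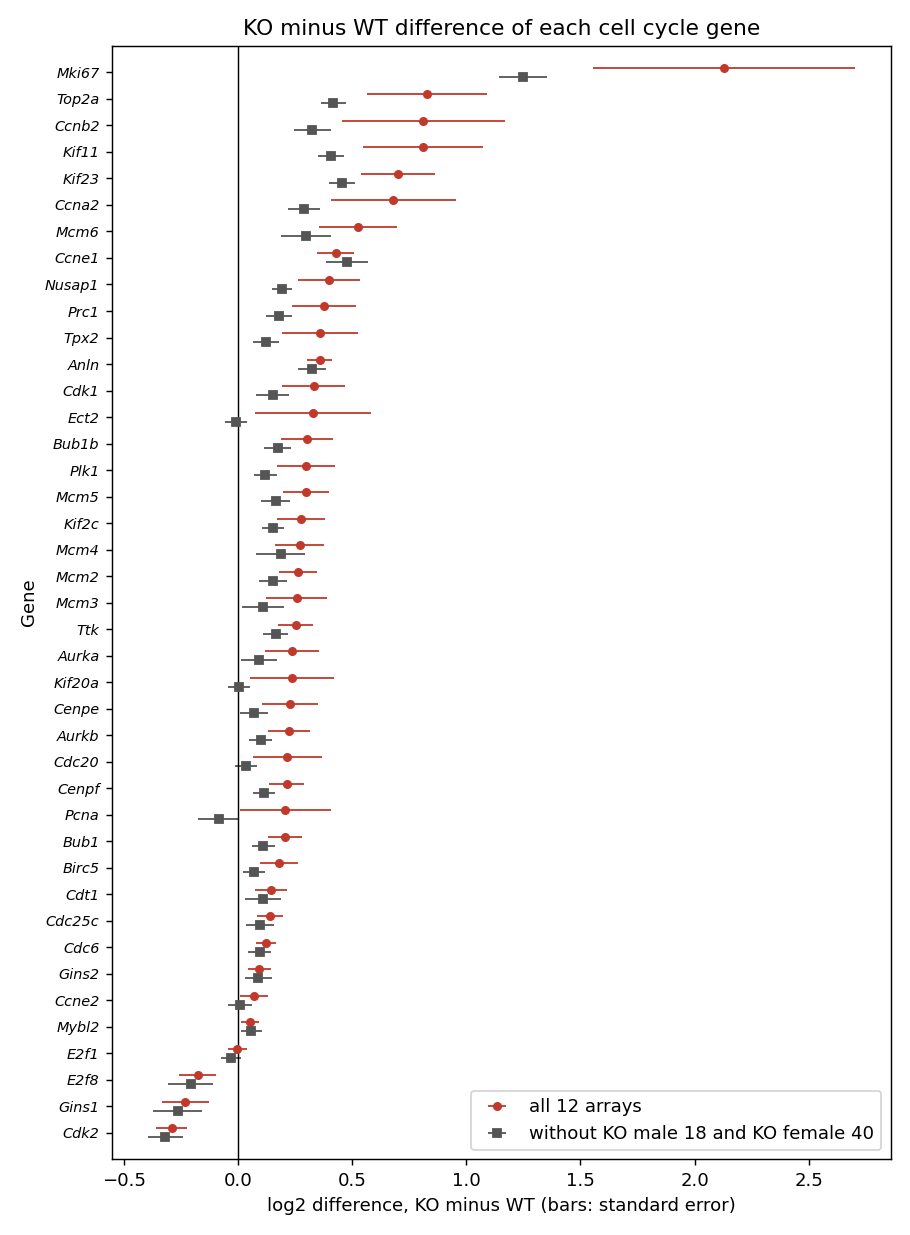
Log2 difference of KO minus WT for each of the 41 genes with all 12 livers (circles) and without KO male 18 and KO female 40 (squares), with bars for the SE of the limma fit. Mki67 moves to 1.25 without the 2 animals, against 2.13 with all livers, and Ccne1 and Anln hardly move.

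Other cell cycle genes, taken from lists by function, were set beside the 41. Over all features, 5.28% were called higher and 4.47% lower. Of 49 further mitosis genes 1 rose and none fell, with a median of 0.17: Dlgap5, a spindle protein, at 0.27 ± 0.08 (limma adjusted p = 0.048), not called in 10 of 12 fits without 1 liver (all but those without KO male 19 or KO female 69; up to 0.113), with arrays centred (0.136), after quantile normalization (0.128), and without KO female 40 and KO male 18 together (0.0977). KO female 40 was the highest of the 12 livers in 43 of these 49, against 16.7% of all features. The passenger protein Cdca8 and the kinesin Kif15 differed by 0.17 and 0.23, and the 2 of highest signal, Bub3 of the checkpoint and Spc24 of the kinetochore, by -0.52 and -0.42, none of them past the test.

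Among 41 further S phase genes 1 rose and 2 fell, against 5.28% of all features called higher and 4.47% lower, with a median of 0.09. Usp1, a deubiquitinase of PCNA, was at 0.46 ± 0.12 (limma adjusted p = 0.0411), Mcm10, a helicase activator, at -0.35 ± 0.09 (0.0295) and Gins4, of the GINS complex, at -0.44 ± 0.12 (0.0485). Usp1 was not called in 10 of the 12 fits with 1 liver left out (all but those without KO male 19 or 39; up to 0.0954) and with arrays centred (0.0989). Mcm10 lost it in 9 (up to 0.0731) and Gins4 in 9 (up to 0.113); WT male 17, WT male 23, WT male 33, WT females 25 and 38, KO male 18 and KO females 13 and 69 are in both sets, with KO male 19 for Mcm10 and KO male 39 for Gins4. Without KO female 40 and KO male 18 together none of the 3 was called (limma adjusted p = 0.0958 for Usp1, 0.0901 for Mcm10 and 0.0888 for Gins4).

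Of 28 further cyclins, CDKs, E2F and pocket genes 3 rose and 4 fell, against 5.28% of all features called higher and 4.47% lower. Lin37, a MuvB subunit needed for the repression of cell cycle genes at rest, had 5.32, 5.44 and 5.49 in KO females and 5.38, 5.44 and 5.48 in KO males, against 6.27, 5.99 and 6.27 in WT females and 6.28, 6.47 and 6.20 in WT males. All KO livers were below all WT livers, with little spread, and KO female 40 and KO male 18 did not stand out. The difference was -0.82 ± 0.07 (limma adjusted p = 0.000434), called in females and in males and in all 12 fits without 1 liver, although only 2 arrays exceeded the negative control range. It was not called with the poly-A spike mean (adjusted p = 0.255) or the negative control median (0.191) as a covariate. Rb1, the retinoblastoma protein that restrains E2F, rose by 0.72 ± 0.17 (limma adjusted p = 0.0227), and lost its call without WT males 23 or 33, WT female 25 or KO male 18 (up to 0.0581) and without KO female 40 and KO male 18 together (0.0805). E2f4, the main repressive E2F, was at -0.26 ± 0.06 (limma adjusted p = 0.0298), and lost its call in 7 of the 12 fits (without WT males 17 or 23, WT female 38, KO males 18 or 19, or KO females 13 or 40; up to 0.0742) and without KO female 40 and KO male 18 together (0.111). Tfdp1, the partner of E2F proteins, and the pocket protein Rbl2 were at -0.15 and -0.27 and did not pass.

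Cdkn1a, the CDK inhibitor p21 induced by p53, was the 1 of 7 CDK inhibitors that passed, against 9.75% of all features. It had 12.65, 13.996 and 12.39 in KO females 13, 40 and 69 and 9.22, 11.70 and 8.38 in KO males 18, 19 and 39, against 9.22, 10.32 and 8.80 in WT females and 9.21, 8.20 and 8.10 in WT males. The KO females and KO male 19 were above every WT liver, while KO males 18 and 39 were within the WT range, so KO male 18, high in mitosis genes, was not high in Cdkn1a. The difference was 2.42 ± 0.56 (limma adjusted p = 0.0235), at 3.57 in females (0.0292) and 1.26 in males (0.584). The call was lost without WT male 23, WT male 33 or WT female 38 (adjusted p up to 0.062), and without KO male 18 and KO female 40 together (0.0672). With the poly-A spike mean as a covariate the difference was 4.81 (limma adjusted p = 0.252), and with the negative control median 6.92 (0.0273), whereas Rb1, E2f4, Usp1, Mcm10, Gins4 and Dlgap5 were called with neither. Cdkn1b (p27) and Cdkn2c (p18) were at 0.25 and 0.16 and did not pass.

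The lists of macrophage, erythroid precursor, megakaryocyte, T and NK cell and stellate cell markers also had their highest means among the KO livers in KO female 40 and KO male 18. Those of hepatocytes, neutrophils, B cells, endothelium and biliary epithelium did not. Of 10 macrophage markers 8 rose and none fell, with a mean log2 signal over the list of 9.89 to 14.05 in KO and 7.76 to 9.13 in WT livers. Lyz2 (1.84, limma adjusted p = 0.138) and Clec4f (0.21, 0.819) did not pass. KO female 40 was the highest of 12 livers in 10 of 10 of these markers, at a mean of 14.05, and KO male 18 the highest KO male in 10 of 10, at 11.69, with the other KO livers between 9.89 and 11.32. All 10 exceeded the negative control range on at least 1 array. Of 8 erythroid precursor markers none passed by limma, and the list averaged 6.05 in KO male 18, 5.35 in KO female 40, 4.87 to 4.96 in the other KO livers and 4.57 to 5.11 in WT livers, with 6 of the 8 within the negative control range on every array. Of 4 megakaryocyte markers 1 rose (Ppbp), and KO female 40 (5.28) and KO male 18 (4.95) were again the highest of a KO range of 3.96 to 5.28, against 3.69 to 3.90 in WT, with 3 of the 4 within the negative control range.

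Among the neutrophil markers 8 of 10 rose and none fell, with means of 5.18 to 8.56 in KO and 4.20 to 4.78 in WT livers. KO male 18 had the highest mean of the 12 livers, 8.56, and was the highest KO male in 8 of the 10. KO female 40, unlike in the mitosis genes, had the lowest mean of the KO females and was the highest of 12 in 1 of the 10. Of the 10 markers, 5 were within the negative control range. Of 8 T and NK cell markers none passed by limma, at 3.94 to 4.92 in KO, the highest being KO female 40, and 3.86 to 4.08 in WT. In the B cell list 1 of 5 rose (Cd79b), with 4.08 to 4.38 in KO and 3.99 to 4.24 in WT. Markers of endothelium (3 of 6 higher, 2 lower), stellate cells (none of 6 passed) and biliary epithelium (none of 5 passed) averaged 8.13 to 9.49, 4.81 to 5.81 and 4.14 to 4.63 in KO livers, against 8.24 to 8.95, 5.02 to 5.53 and 4.17 to 4.43 in WT livers. In the stellate list KO female 40 was the highest of 12 livers in 5 of 6 markers and KO male 18 the highest KO male in 5 of 6, with 4 of the 6 within the negative control range. The part of these cell types in the cell cycle genes was not tested.

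**Figure D5:**
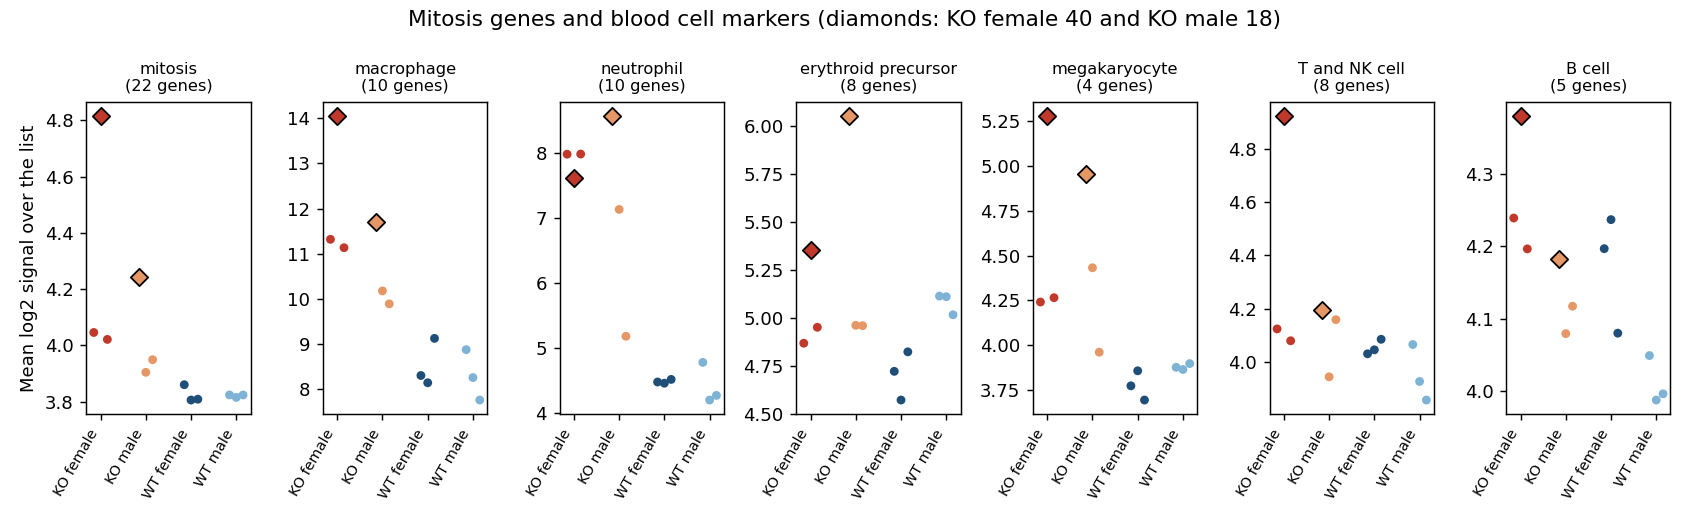
Mean log2 signal per liver over the 22 mitosis genes and over 6 lists of markers of macrophages, blood cells and blood cell precursors, by group. Diamonds mark KO female 40 and KO male 18. Each panel has its own axis. The 2 diamonds are on top of their groups in the mitosis, macrophage, erythroid precursor, megakaryocyte, T and NK cell and B cell panels. In the neutrophil panel KO male 18 is the highest liver and KO female 40 the lowest KO female.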

How the data were processed

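Liver RNA of 12 mice was measured on Affymetrix MTA arrays. Values are the log2 signals the authors deposited; per the submitters' processing notes they were made with Transcriptome Analysis Console, and the labels used here name no normalization, annotation build or detection calls. The 6732 control features of 72688 were kept out of all tests. Gene symbols came from the platform annotation. Promoters came from RefSeq (GRCm38.p6).

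A model of 4 group means (genotype by sex letter) was fitted to 65956 features by limma 3.58.1 (R 4.3.3; functions lmFit and eBayes; 8 residual degrees of freedom), with Benjamini-Hochberg adjustment over all features and a threshold of 0.05. The fit was checked on simulated data. For array measures, genotype was permuted exactly inside each sex. Each gene is its highest-mean feature.

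The genes, lists and tests were chosen with earlier results of these data known. Genes described one by one were Mki67, Top2a, Pcna, Cdk1 and any called member with a group above the 95th percentile of 5222 negative controls; from each list of other cell cycle genes up to 3 with the smallest p and the 2 of highest signal. Other genes named were chosen after their values were seen. Alternatives were other scalings, a filter, no sex term, another variance prior, array covariates and left-out arrays.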

Additional observations from a re-analysis of the deposited data

Results flagged for a closer look

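Within each genotype the 6 livers were tested for 1 value far from the rest, as the gap to the nearest other value divided by the whole range. About 1 in 20 groups would be marked if each were drawn from 1 normal distribution. Here the groups are 41 genes read in the same 12 livers, with both sexes pooled. They are not independent, so the count of marks cannot be set against that share. Of 82 groups, 9 were marked, 6 of them in KO livers. KO female 40 was the high value in all 6, with gap ratios of 0.719 for Ccnb2 (cyclin B2), 0.819 for Cdc20, 0.780 for Bub1b, 0.824 for Kif20a, 0.743 for Kif2c and 0.745 for Ect2, all mitosis genes. In WT livers a low value was marked for WT female 25 in Cdk2 (0.695), WT female 27 in E2f1 (0.651) and WT male 33 in Kif20a (0.696). All 8 genes involved stayed inside the negative control range on every array. KO female 40 was also the highest of the 12 livers in 10 of 10 macrophage markers, whose part in these values was not tested.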

How the results depend on the processing

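With the poly-A spike mean or the negative control median of each array as a covariate, both of which differ between the genotypes, 3 and 25 features were called over both sexes against 6432 without one, 74 and 11 against 4083 in females and 0 and 3 against 716 in males. None of the 41 genes was then called higher (0 and 0 against 4), lower (0 and 0 against 1) or in females (0 and 0 against 2). The mitosis median was 0.33 and 0.38 against 0.29, and the S phase median 0.18 and 0.33 against 0.13. Cdk2 was at -0.17 and 0.0050 against -0.29. Under a filter on low signal 1 gene, Pcna, was left of the 41 and the counts were 0 higher, 0 lower and 0 in females, while 1649 features were called in males. Quantile normalization gave 1089 features in males and 1 gene in females. Centring and quantile normalization turned the split of called features to 2538 higher and 4001 lower, and 2555 and 4091, against 3482 and 2950; of the 41 genes, 4 higher and 1 lower were called with centring, as without it, and 3 and 1 with quantile normalization. Without KO male 19 and WT female 38, 1959 features were called in females and 1130 in males, 0 genes were lower, and Mki67 and Cdk2 were not called. Without KO male 18 and KO female 40, a choice made once the data had been seen, 122 features were called in males, 8 genes were higher, 6 were called in females and Pcna turned to -0.085.

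Leaving out 1 liver at a time gave 4553 to 6599 features called over both sexes, 1581 to 4563 in females and 161 to 938 in males, 2 to 5 genes higher, 0 to 1 lower, 2 to 4 in females and 0 to 0 in males, an S phase median of 0.10 to 0.16 and a mitosis median of 0.17 (without KO female 40) to 0.34. The covariates take up part of the genotype contrast itself. No paired analysis was possible because no animal number occurs in more than 1 group. The mean over several features of a gene was not run, since each gene has 1. The number of arrays and signal near the negative controls limit the precision, and otherwise the cause was not tested.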
